A study of Mus musculus with 12 samples.

Results

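The genes of de novo lipogenesis were followed across age in mouse liver. The set held 10 genes, Acly, Acaca, Acacb, Fasn, Elovl6, Scd1, Me1, Srebf1, Thrsp and Mlxipl, taken by name from the 53465 genes of the count table, and all 10 were present and passed every low-count filter. Livers came from C57BL/6N mice aged 3 months (called young here), 12 months (middle-aged) and 18 months (aged). The table held 4 livers for each age, labelled as 1 animal each, whereas the series description counts 3 replicates per age. All 4 were used, so n = 4 and the p-values rest on the sample labels. No treatment or engineered allele is given for any group. The preparation given with the samples covers young and old livers only. The methods of the study describe its own RNA-seq of 4 young and 4 old livers and state that its mice were male. They also take liver RNA-seq at 3 ages from a public atlas of ageing mice, so the origin of the individual libraries is uncertain.

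De novo lipogenesis turns surplus carbohydrate into fatty acids. Citrate leaves the mitochondrion and is cleaved in the cytosol to acetyl-CoA, which is carboxylated to malonyl-CoA and condensed into palmitate with reducing power from NADPH. Palmitate is then elongated and desaturated before it enters triglyceride. In liver the pathway is induced by feeding, through insulin and the transcription factor SREBP-1c on one arm and through glucose metabolites and the transcription factor ChREBP on the other.

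Libraries held between 8124312 and 10527159 counts assigned to genes. Each member had at least 467 raw counts in every liver and Scd1 reached 209878, so counting error was small beside the differences between livers. Synthetic spike-in RNAs split the libraries into replicates 1 and 2 of every age and replicates 3 and 4 of every age. Over 31 spike-ins, abundances correlated at 0.997 or more within a set and at 0.925 or less between sets. Comparisons of ages are therefore also given within each spike-in set, where 2 livers stood against 2. Mitochondrially encoded genes took 19.2% of gene counts in young replicate 2 (95% Wilson interval 19.1 to 19.2%, counting error only) and 5.48 to 10.7% in the other livers. Markers of hepatocytes were high throughout, with a summed normalised count of Alb, Apoa1, Ttr, Tat and Cps1 of 709532 to 957543. In whole liver, fewer cells of a type and less RNA per cell cannot be told apart.

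Promoter sequence is shown for Srebf1, which encodes SREBP-1, and for Fasn, the fatty acid synthase, because the first was the one member called between ages, the other is its textbook target, and both carry the same feature upstream. The 250 bases before the RefSeq start site are given 5′ to 3′ on the minus strand of chromosome 11 (RefSeq, GRCm38.p6). Capitals mark the letters TCACCC, the core of a sterol regulatory element, and a direct repeat of TGACCG and TAACCC with 4 bases between, the arrangement known for the oxysterol receptor LXR.
Srebf1, chr11:60210472-60210721: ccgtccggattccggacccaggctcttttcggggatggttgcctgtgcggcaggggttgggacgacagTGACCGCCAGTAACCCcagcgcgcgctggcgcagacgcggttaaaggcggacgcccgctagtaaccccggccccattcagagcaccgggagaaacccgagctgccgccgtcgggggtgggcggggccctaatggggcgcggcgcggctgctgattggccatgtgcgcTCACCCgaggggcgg
Fasn, chr11:120824548-120824797: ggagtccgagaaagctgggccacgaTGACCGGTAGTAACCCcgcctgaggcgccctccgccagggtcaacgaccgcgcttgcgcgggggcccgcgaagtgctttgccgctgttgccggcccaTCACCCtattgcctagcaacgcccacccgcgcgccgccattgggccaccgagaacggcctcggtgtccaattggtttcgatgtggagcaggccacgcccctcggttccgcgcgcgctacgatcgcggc
The direct repeat began at position -182 of Srebf1 and at position -225 of Fasn, counting the first transcribed base as 0. Among 32851 RefSeq windows of 300 bases, searched on both strands, 3 held this repeat, those of Abca1, Fasn and Srebf1. The repeat was chosen after both sequences had been seen. TCACCC began at -15 in Srebf1, at -128 in Fasn and at -102 in Me1, the 3 of 9 members with a window that held it, against 18.1% of all genes with a window. The longer form TCACNCCAC, which can contain TCACCC, and the E-box CACGTG each occurred in Mlxipl alone among the members, against 1.44% and 8.09% of all genes. CCAAT occurred in 7 of the 9 members, against 41.1% of all genes, and the GC box GGGCGG in 4 of the 9, against 38.2%. A gene may have more than 1 window: the 9 members held 13, and 27025 genes held the 32851. More windows per gene raise the share of genes with a match. Such matches are letters in a window and not sites of binding. The Srebf1 start site shown lies inside the annotated gene, whose gene-level counts do not separate the 1a and 1c transcripts. Scd1 was not analysed here for promoter sequence.

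In the GRCm38 annotation, 4 of the members lie on chromosome 11: Acly from 100476353 to 100528000, Acaca from 84129672 to 84401651, Fasn from 120805846 to 120824547 and Srebf1 from 60199089 to 60222581, Acaca on the plus and the rest on the minus strand. The others lie apart, Acacb on chromosome 5 from 114146535 to 114250761 (plus strand), Mlxipl on chromosome 5 from 135089890 to 135138382 (plus strand), Elovl6 on chromosome 3 from 129532355 to 129638495 (plus strand), Thrsp on chromosome 7 from 97412938 to 97417730 (minus strand), Me1 on chromosome 9 from 86581371 to 86695953 (minus strand) and Scd1 on chromosome 19 from 44394455 to 44407879 (minus strand). The exonic lengths used here merge the exons of all annotated transcripts of a gene and include untranslated regions, so levels per kilobase depend on the annotated transcripts.

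Levels of the 10 members spanned a wide range. Per kilobase of exonic sequence, the mean normalised count over the 12 livers was highest for Scd1 at 21809 and lowest for Acaca at 51.4. Between them came Thrsp at 2168, Acly at 864, Fasn at 679, Me1 at 553, Srebf1 at 418, Elovl6 at 238, Mlxipl at 191 and Acacb at 146. Neighbours in this order were separated in all 12 livers at 4 steps (Scd1 over Thrsp, Thrsp over Acly, Srebf1 over Elovl6 and Acacb over Acaca). Elovl6 exceeded Mlxipl in 6 of 12 livers, so those neighbours did not differ beyond their spread. Scd1 alone took 0.388% of all gene counts in young replicate 2 (Wilson interval 0.384 to 0.392%) and 1.99% in middle-aged replicate 2 (1.985 to 2.002%). It ranked from 4th to 28th of all genes by count, and it was among the top 5 in every middle-aged liver.

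**Figure D1:**
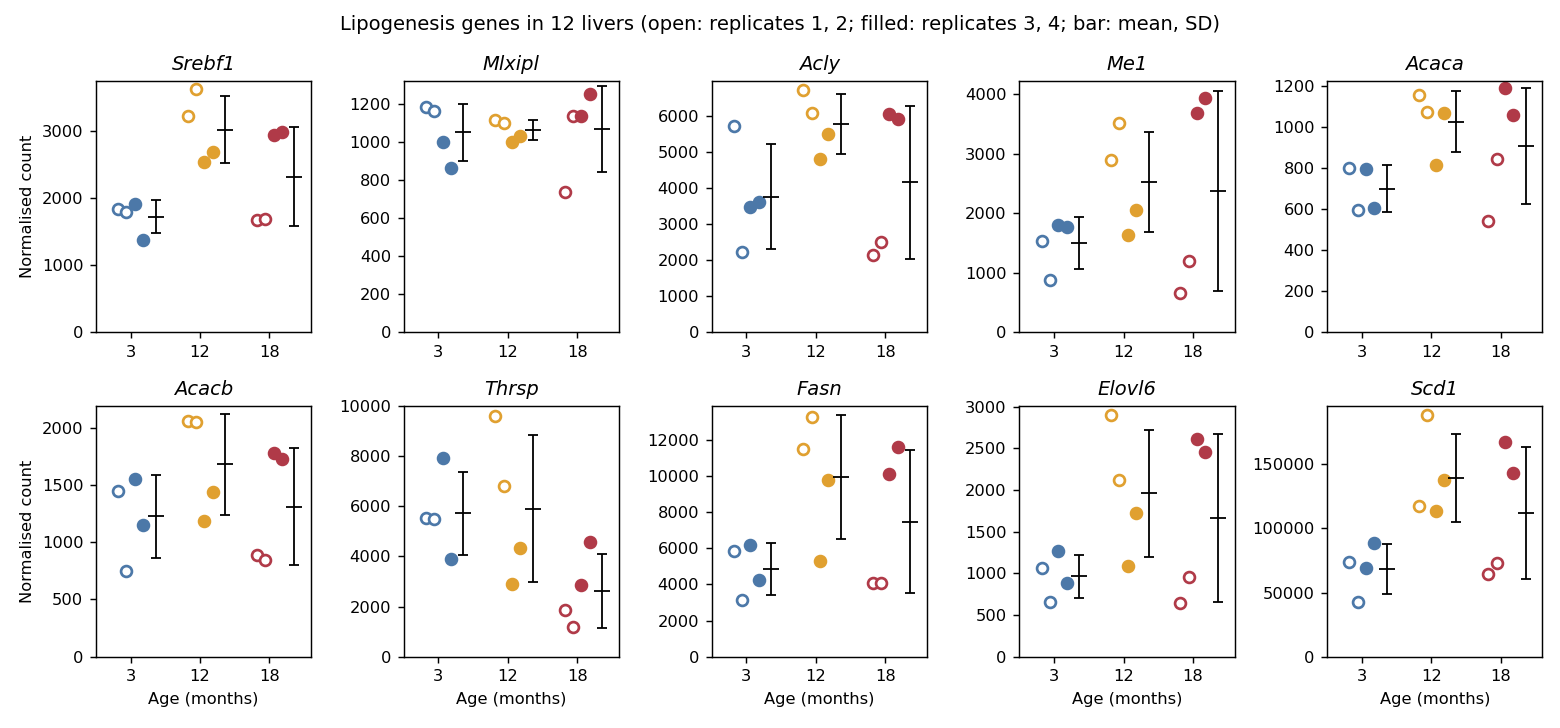
Normalised count of each lipogenesis gene (vertical axis, from 0) against age in months, 3 for young, 12 for middle-aged and 18 for aged livers. Open points are replicates 1 and 2 and filled points replicates 3 and 4; the bar beside each group is its mean with the SD (n = 4). In the aged group the filled points lie above the open ones in all 10 genes, for Mlxipl by less than 1 count between the nearest pair.

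The transcription factor genes differed from each other in their pattern. Srebf1 was at 1833, 1788, 1910 and 1370 normalised counts in young replicates 1 to 4, at 3230, 3637, 2536 and 2696 in middle-aged replicates and at 1682, 1683, 2938 and 2991 in aged replicates. Every middle-aged liver lay above every young liver, while the aged livers split into a pair at the young level and a pair at the middle-aged level. Srebf1 rose 1.75-fold from young to middle-aged livers, by 0.81 on the log2 scale (SE 0.20, DESeq2 adjusted p = 0.00382), within both spike-in sets (0.92 and 0.67, DESeq2 adjusted p = 8.53e-06 and 0.000723) and without any single liver (0.71 to 0.89). Under edgeR's quasi-likelihood test the same change of 0.81 had an adjusted p of 0.0506. Exons of Srebf1 share 109 of 5634 bases with Rai1 on the opposite strand.

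Mlxipl encodes ChREBP, the glucose-responsive factor. Its normalised count was 1180, 1162, 996 and 860 in young, 1112, 1096, 1000 and 1032 in middle-aged and 736, 1137, 1137 and 1251 in the aged livers. The groups overlapped, and no pair of ages passed the test. The middle-aged against young difference was 0.01 on the log2 scale (SE 0.15, 95% interval -0.29 to 0.32), and the aged against young difference was 0.02 (95% interval -0.28 to 0.32). Its highest value was 1.7 times its lowest, the narrowest range of the 10 genes. The count of Mlxipl may include reads of the antisense gene Gm43500, which shares 235 of its 5538 exonic bases.

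Acly and Me1 supply the substrates of synthesis. Acly, the ATP citrate lyase that makes cytosolic acetyl-CoA, had normalised counts of 5731, 2233, 3460 and 3609 in young, 6734, 6080, 4792 and 5506 in middle-aged and 2146, 2500, 6049 and 5924 in the aged livers. Young replicate 1 reached the middle-aged range and the first pair of aged livers lay near the lowest young liver. The middle-aged against young change of 0.62 (SE 0.38, DESeq2 adjusted p = 0.334) did not pass the threshold. Me1, the cytosolic malic enzyme that yields NADPH, was at 1539, 870, 1802 and 1774 in young, 2886, 3511, 1637 and 2050 in middle-aged and 658, 1203, 3686 and 3932 in the aged livers. Both its lowest and its highest liver were aged, and the highest was 5.97 times the lowest. None of its 3 comparisons of ages passed, with a log2 fold change of 0.75 for middle-aged and of 0.66 for aged livers against young ones, and of -0.09 from middle-aged to aged livers (SE 0.54 in each).

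Acaca and Acacb encode the acetyl-CoA carboxylases, the cytosolic form that feeds synthesis and the mitochondria-associated form whose malonyl-CoA restrains fatty acid oxidation. Acaca had 798, 595, 796 and 606 normalised counts in young, 1153, 1071, 812 and 1064 in middle-aged and 543, 842, 1189 and 1057 in the aged livers. All middle-aged livers were above all young livers, with middle-aged replicate 3 only just so. The difference was 0.55 on the log2 scale (SE 0.21, DESeq2 adjusted p = 0.085). Acacb had 1445, 746, 1555 and 1152 in young, 2061, 2045, 1187 and 1434 in middle-aged and 890, 845, 1774 and 1729 in the aged livers, and here the ages overlapped. Its middle-aged against young difference was 0.46 (SE 0.28, DESeq2 adjusted p = 0.341).

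The ratio of raw Acacb to Acaca counts ran from 1.003 in aged replicate 2 to 1.95 in young replicate 3. On the log2 scale the young livers averaged 0.77 ± 0.30, the middle-aged 0.69 ± 0.24 and the aged 0.50 ± 0.34 (SD, n = 4), and no pair of ages passed a two-sided exact permutation test (p = 0.314 to 0.743, 0.971 after Benjamini-Hochberg adjustment over 6 ratio comparisons). The smallest p that 4 livers against 4 allow is 0.0286.

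Thrsp, known as Spot 14, acts with its partner Mid1ip1 on the enzymes of fatty acid synthesis, and it followed another course. It had 5546, 5497, 7911 and 3884 normalised counts in young, 9583, 6789, 2902 and 4328 in middle-aged and 1857, 1205, 2851 and 4588 in the aged livers. It was the only member with a lower mean in aged than in young livers, although aged replicate 4 stood above the lowest young liver. The aged against young change of -1.12 (SE 0.47, 95% interval -2.05 to -0.19, DESeq2 adjusted p = 0.183) and the aged against middle-aged change of -1.17 (SE 0.47, DESeq2 adjusted p = 0.29) did not pass. Without aged replicate 4 the aged against young change was -1.54 (DESeq2 adjusted p = 0.0344), in a fit that called 2.6% of all tested genes. That was the largest fall with any of the 12 livers left out, the range being -1.54 to -0.88. Among replicates 3 and 4 alone the change was -0.67 (SE 0.54, DESeq2 adjusted p = 0.758).

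Fasn builds palmitate. It was at 5855, 3132, 6196 and 4274 normalised counts in young, 11479, 13264, 5282 and 9789 in middle-aged and 4075, 4105, 10103 and 11583 in the aged livers. Of the middle-aged livers only replicate 3 entered the young range, and of the aged livers replicates 1 and 2 did. The middle-aged mean was 2.05 times the young one in the fit (1.03 on the log2 scale, SE 0.41, DESeq2 adjusted p = 0.103), short of the threshold.

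Elovl6 and Scd1 finish the product, by lengthening palmitate to stearate and by desaturating stearate to oleate. Elovl6 had 1060, 660, 1265 and 883 normalised counts in young, 2898, 2120, 1089 and 1728 in middle-aged and 639, 960, 2609 and 2453 in the aged livers. Again middle-aged replicate 3 and aged replicates 1 and 2 lay within or below the young range. Its middle-aged against young change was 1.02 (SE 0.48, DESeq2 adjusted p = 0.183). Scd1 had 74024, 42530, 68974 and 89037 in young, 117177, 188429, 113959 and 137792 in middle-aged and 64336, 73209, 167758 and 143054 in the aged livers. Each middle-aged liver exceeded each young liver. Its middle-aged against young change of 1.02 (SE 0.35, 2.03-fold) had a DESeq2 adjusted p of 0.051, just short of the threshold of 0.05, and it passed within each spike-in set (1.39 and 0.66, DESeq2 adjusted p = 1.34e-05 and 0.000251). The ratio of Scd1 to Elovl6 counts ranged from 40.4 in middle-aged replicate 1 to 104.7 in middle-aged replicate 3 and no pair of ages passed the exact permutation test (p = 0.857 to 0.971).

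**Figure D2:**
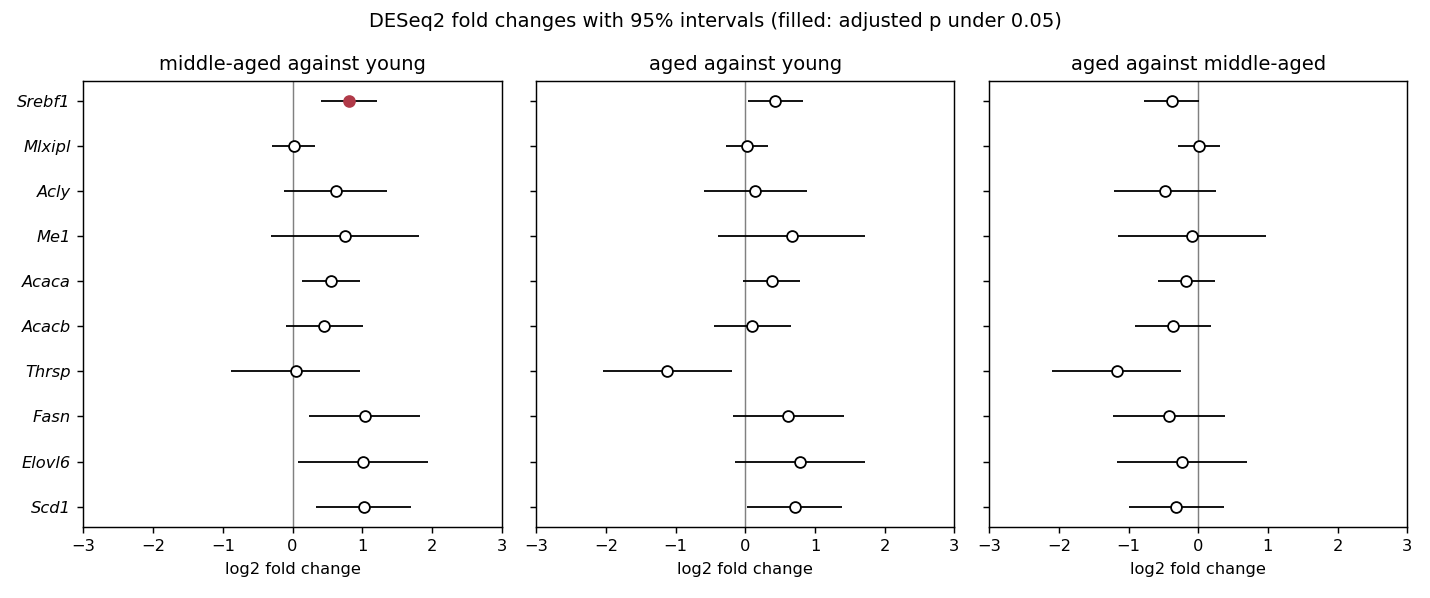
DESeq2 log2 fold changes (horizontal axis) with 95% intervals for each gene in the comparisons of ages, 4 livers against 4. Only Srebf1 between middle-aged and young livers, the filled point at 0.81, passed an adjusted p of 0.05.

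The first comparison of ages asked what changed by 12 months. DESeq2 called 1 of the 10 members, Srebf1, among 6.41% of all tested genes called between middle-aged and young livers, 3.51% called as higher, so the number of members called was close to that share. All 10 members had a higher mean in middle-aged livers, with a median log2 fold change of 0.69 against 0.0065 over all tested genes. Of the 10, 5 had an unadjusted p under 0.05. The share of all genes at that unadjusted cutoff is not given here, so counts at it, here and below, stand without a background. Acaca, Scd1 and Srebf1 were higher in all 4 middle-aged than in all 4 young livers, which held for 7.99% of tested genes. edgeR called none of the 10 (2.31% of its tested genes, 5 members at an unadjusted p under 0.05). With limma voom Srebf1 and Scd1 were called (5.8% of its tested genes). Leaving out aged replicate 1 from the fit gave 3 calls (Acaca, Scd1 and Srebf1), with the share of all tested genes called also higher at 9.72%. Leaving out young replicate 4, aged replicate 2 or aged replicate 3 gave 2 calls (Scd1 and Srebf1), with 5.25%, 6.37% and 6.63% of tested genes called. Middle-aged replicate 3 was the lowest of its age for all 10 members. The share of all tested genes lowest in that liver is not given here, so this count stands without a background. The same liver stood apart in adipocyte RNA, with 5 of 6 adipocyte markers at their highest there. The 6 markers summed to 615 in that liver, against 43.1 to 63.7 in the other middle-aged, 58.6 to 102 in the young and 44.3 to 76.0 in the aged livers. Adipoq stood at 89.2 there and at no more than 11.7 in any other liver, 8 of which were at 0. The part of adipocyte RNA in the low lipogenesis values of that liver was not tested. Without that liver the Srebf1 change was 0.89 (DESeq2 adjusted p = 0.0047).

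Between aged and young livers DESeq2 called none of the members, where 3.58% of tested genes were called. Neither edgeR nor limma voom called any, where 1.42% and 2.94% of tested genes were called. Of the 10, 3 had an unadjusted p under 0.05 in DESeq2 and 3 in edgeR, and 9 had a higher mean in aged livers (median log2 fold change 0.40). No member was higher in all 4 aged than in all 4 young livers, which 3.84% of tested genes were. Without aged replicate 1, 2 members were called, Acaca (0.56, DESeq2 adjusted p = 0.0126) and Srebf1 (0.56, DESeq2 adjusted p = 0.0473), in a fit that called 10.5% of all tested genes. Between aged and middle-aged livers DESeq2 called none (1.14% of tested genes), nor did edgeR (0.107%) or limma voom (0.479%). There 1 member had an unadjusted p under 0.05 in DESeq2 and in edgeR, and 9 had a lower mean in aged livers. Over the ages together, the likelihood ratio test called Srebf1 alone (DESeq2 adjusted p = 0.0108), where 6.96% of tested genes were called. That call changed with single livers. With young replicate 4 or middle-aged replicate 2 left out no member was called, beside 5.78% and 4.21% of tested genes. With aged replicate 1 left out 3 were, beside 13.3% of tested genes.

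Most members were high in the same livers and low in the same livers. Aged replicates 3 and 4 were both above aged replicates 1 and 2 in 10 of 10 members, an arrangement found in 20.2% of tested genes. The fold between the means of these pairs was 4.09 for Me1, 3.16 for Elovl6, 2.65 for Fasn, 2.58 for Acly, 2.43 for Thrsp, 2.26 for Scd1, 2.02 for Acacb, 1.76 for Srebf1, 1.62 for Acaca and 1.28 for Mlxipl. Markers of other cells also differed between these pairs. Of 4 stellate cell markers 3 (Lrat, Dcn and Reln) were higher in both of aged replicates 3 and 4, and the 4 summed to 1800 and 1496 in the first pair and to 2748 and 2189 in the second. Replicates 3 and 4 had the higher stellate sums at the other ages too, with 2000 and 2367 against 1386 and 1093 in young and 2900 and 2728 against 1592 and 1736 in middle-aged livers. Hepatocyte marker sums were 735833 and 818106 in the first aged pair and 847878 and 957543 in the second, with Alb higher and Tat lower in both livers of the second. Among acinar markers Cela1 was at 794 and 548 in the first pair and at 259 and 372 in the second, while Cpa1 and Pnlip were at 0 in all aged livers. No biliary marker separated the pairs, and of the Kupffer cell, endothelial and adipocyte markers 1 of 4 (Cd5l, lower), 1 of 4 (Kdr, higher) and 2 of 6 (Retn and Cfd, higher) did. The part of these cells in the split was not tested. In middle-aged livers the order of the members was the opposite: replicates 1 and 2 were both above replicates 3 and 4 in 9 of 10 members, all but Scd1, against 24.4% of tested genes. In young livers neither arrangement was common, with 1 member (Me1) higher in replicates 3 and 4 and 1 (Mlxipl) in replicates 1 and 2. Young replicate 2, the library with the high mitochondrial share, was the lowest young liver for 7 of 10 members. The share of all tested genes lowest in that library is not given here, so a shift of the whole library and one of the members cannot be told apart by this count. That library also had the highest summed Kupffer cell markers (3812, others at most 3153), the highest endothelial markers (1786, others at most 1311) and the largest spike-in share (10.6%, others at most 6.23%). The part of these in its low values was not tested.

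**Figure D3:**
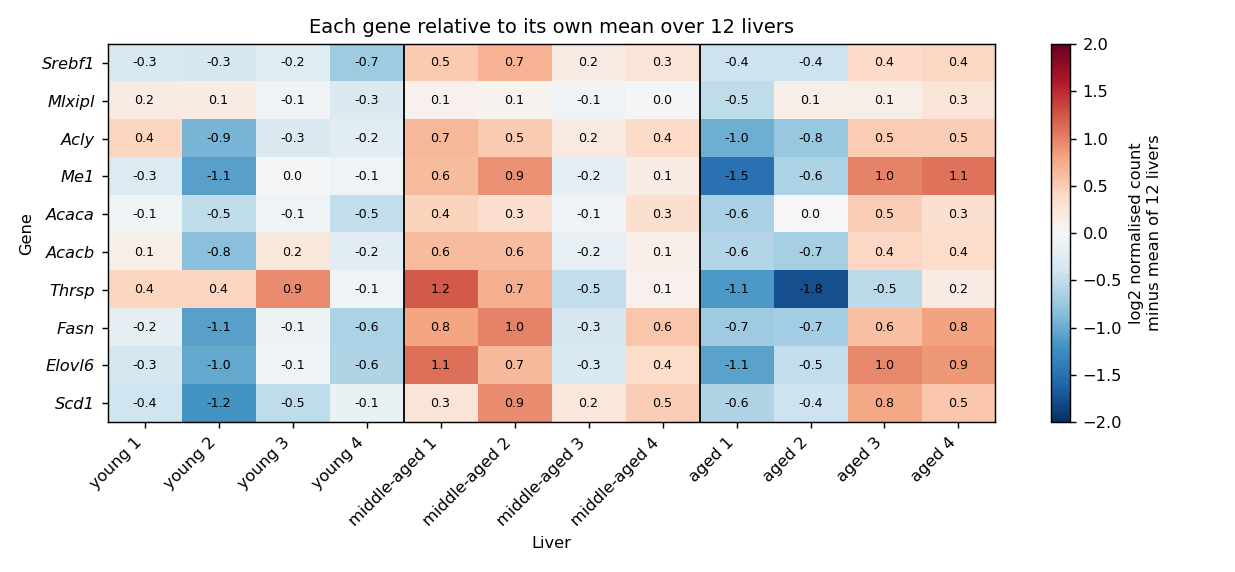
Heat map of log2 normalised counts minus the gene's own mean over 12 livers, with genes in rows and livers in columns; vertical lines separate the ages and the numbers are the plotted values to 1 decimal. Averaged over the 10 genes, aged replicates 1 and 2 stood at -0.82 and -0.57 and aged replicates 3 and 4 at 0.47 and 0.53, beside 0.64, 0.65, -0.10 and 0.27 in middle-aged replicates 1 to 4.

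Within the spike-in sets the comparison of aged with middle-aged livers ran in opposite directions. Among replicates 1 and 2 all 10 members were lower in aged livers and DESeq2 called 6 of them, where 0.307% of tested genes were called. These were Thrsp (-2.42, SE 0.23), Elovl6 (-1.65, SE 0.26), Fasn (-1.59, SE 0.24), Acacb (-1.24, SE 0.25), Scd1 (-1.15, SE 0.26) and Srebf1 (-1.03, SE 0.17). Among replicates 3 and 4 all 10 members were higher in aged livers, and Me1 (1.06, SE 0.13) and Elovl6 (0.85, SE 0.20) were called, where 2.47% of tested genes were. The difference between the sets was itself tested as an interaction and DESeq2 called 7 members (Me1, Elovl6, Srebf1, Acacb, Scd1, Thrsp and Fasn), where 0.996% of tested genes were called. It was largest for Me1, at 2.83 on the log2 scale (SE 0.37, DESeq2 adjusted p = 4.57e-11), and for Elovl6, at 2.50 (SE 0.39, DESeq2 adjusted p = 6.42e-08). With edgeR's quasi-likelihood test of the same interaction 3 of the 7 were called, Me1, Elovl6 and Srebf1 (adjusted p = 0.00788, 0.0186 and 0.023). That test called 0.405% of all tested genes. Each set holds 2 livers per age, so a difference between sets and a difference between individual mice cannot be told apart.

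**Figure D4:**
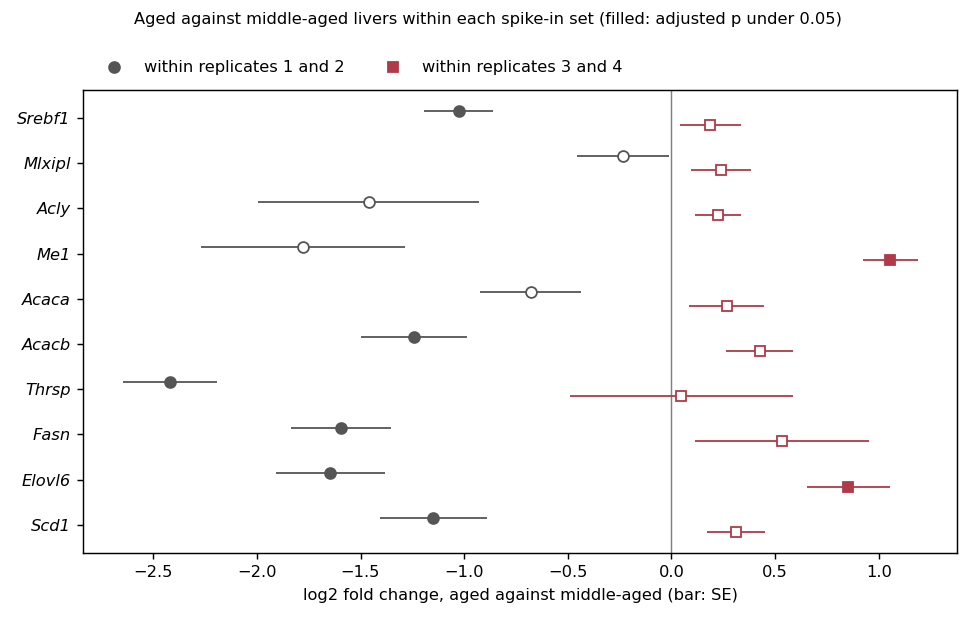
Log2 fold change of aged against middle-aged livers (horizontal axis, bars are SE) fitted within replicates 1 and 2 (circles) and within replicates 3 and 4 (squares), 2 livers against 2, for the 10 lipogenesis genes. All 10 circles lie below 0, 6 of them called, and all 10 squares lie above 0, with Me1 and Elovl6 called.

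The aged against young changes also differed between the spike-in sets, but their directions were not opposite for every member. Scd1 was higher in aged livers within replicates 1 and 2 (0.24) and within replicates 3 and 4 (0.97). Thrsp was lower in both sets (-1.85 and -0.67). Among replicates 3 and 4, DESeq2 called 6 members as higher in aged livers, where 4.22% of tested genes were called, and these were Elovl6 (1.24, SE 0.20), Me1 (1.09, SE 0.13), Scd1 (0.97, SE 0.14), Srebf1 (0.85, SE 0.15), Acly (0.76, SE 0.11) and Acaca (0.68, SE 0.18). Among replicates 1 and 2 it called Thrsp alone, which was lower (-1.85, SE 0.23), where 1.24% of tested genes were called. The interaction was called for Me1 (1.46, SE 0.37, DESeq2 adjusted p = 0.0154) and Srebf1 (0.96, SE 0.22, DESeq2 adjusted p = 0.00255), where 0.732% of tested genes were. By edgeR it was called for no member, where 0.19% of tested genes were called (8 members at an unadjusted p under 0.05). Between middle-aged and young livers 5 members were called among replicates 1 and 2 (Elovl6, Fasn, Scd1, Srebf1 and Acacb; 2.18% of tested genes) and 3 among replicates 3 and 4 (Scd1, Srebf1 and Acly; 3.64% of tested genes), all of them as higher. No interaction was called there by DESeq2 (0.423% of tested genes, 5 members at an unadjusted p under 0.05). By edgeR none was called either (0.157% of tested genes, 5 members at an unadjusted p under 0.05). The comparisons with young livers and with middle-aged livers share the aged samples.

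Genes of the circadian clock and of fasting were read beside the split in the aged group, since lipogenesis is known to follow both. Dbp, an output factor of the clock, was at 173 and 157 normalised counts in aged replicates 1 and 2 and at 18.4 and 52.7 in aged replicates 3 and 4. Arntl, which encodes the clock activator BMAL1 and peaks opposite to Dbp, was at 106 and 121 in the first pair and at 249 and 228 in the second. Of 10 clock genes, 5 (Dbp, Tef, Per3, Nr1d1 and Nr1d2) were lower in both livers of the second pair, as were 23.2% of tested genes, and 2 (Arntl and Npas2) were higher, as were 20.2%. The summed clock list ran from 1845 to 2762 in aged, 3148 to 4157 in middle-aged and 2351 to 2581 in young livers. As the list holds genes with opposite peaks, such as Arntl and Dbp, this sum does not measure clock phase. None of the 10 was at 0 in any liver. Dbp also rose from 130 to 220 in young to 503 to 908 in middle-aged livers (1.95 on the log2 scale, DESeq2 adjusted p = 0.0142). Pck1, the gluconeogenic enzyme raised by fasting, was at 13403 and 19618 in aged replicates 1 and 2 and at 5365 and 4249 in aged replicates 3 and 4. Pck1 and Angptl4 were the 2 of 7 fasting genes lower in both livers of the second pair, a share close to those 23.2%, and none was higher in both. The fasting list summed to 27899 to 46986 in aged, 28929 to 37615 in middle-aged and 30520 to 41165 in young livers, with Fgf21 at 0 in young replicates 2 and 4. The part of time of day or feeding in the lipogenesis values was not tested, and the sample descriptions give neither a time of collection nor a fasting state.

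The rest of the lipid synthesis pathway was described from 48 other genes grouped by role, all of them measured. DESeq2 called 6 of these between middle-aged and young livers, 4 higher and 2 lower, and 4 in each of the other comparisons, 1 higher and 3 lower in both. Over all tested genes 6.41% were called between middle-aged and young, 3.58% between aged and young and 1.14% between aged and middle-aged livers. The median log2 fold change of the 48 was 0.13, 0.04 and -0.06 from young to middle-aged, from young to aged and from middle-aged to aged livers, compared with 0.69, 0.40 and -0.34 for the 10 members. The edgeR tests called 2, 1 and 0 of the 48, where edgeR called 2.31%, 1.42% and 0.107% of all its tested genes. At an unadjusted p under 0.05 in edgeR there were 15, 10 and 8 of the 48, again without the share of all genes at that cutoff.

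Regulators of SREBP-1 were called at 12 months in both directions. Insig2, which holds the SREBP precursor in the endoplasmic reticulum, was at 1937, 1612, 1877 and 1584 normalised counts in young and 1086, 1015, 1266 and 934 in middle-aged livers. Every middle-aged liver was below every young one, the reverse of Srebf1 in this comparison, and the change was -0.70 (SE 0.19, DESeq2 adjusted p = 0.00681). In aged livers Insig2 was at 1218, 1454, 2472 and 1877, higher than in middle-aged livers by 0.71 (SE 0.19, DESeq2 adjusted p = 0.0221). Within replicates 1 and 2 alone this rise was 0.35 (SE 0.19) and did not pass. The Insig2 interaction with spike-in set, 0.64 (SE 0.27, DESeq2 adjusted p = 0.563), was not called. Insig1, its paralogue and itself an SREBP target, fell by 0.44 from middle-aged to aged livers (SE 0.13, DESeq2 adjusted p = 0.0444), with means of 4230 and 3118. Ppargc1b, a coactivator of SREBP-1, was at 22.3 to 29.3 in young, 48.6 to 80.2 in middle-aged and 17.0 to 33.1 in aged livers. It rose by 1.18 to middle age (SE 0.29, DESeq2 adjusted p = 0.00278) and fell by 1.16 from middle-aged to aged livers (SE 0.28, DESeq2 adjusted p = 0.00763), without overlap of the groups in either comparison. Mbtps1, the site-1 protease that cleaves SREBP, was higher in middle-aged than in young livers by 0.26 (SE 0.08, DESeq2 adjusted p = 0.0368). The other 9 regulators passed in no comparison, among them Scap, the escort of SREBP, with means of 1276, 1294 and 1118 in young, middle-aged and aged livers, and Nr1h3, which encodes LXR alpha, with 1462, 1275 and 1285.

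Of 13 genes of carbon and NADPH supply, Pklr, the liver pyruvate kinase and a ChREBP target, was called at 12 months. It was at 1862, 1249, 1865 and 1416 normalised counts in young, 3747, 3001, 2071 and 2111 in middle-aged and 1330, 2089, 2895 and 3108 in the aged livers, and thus had the same split of the aged group as the members. Its middle-aged against young change was 0.77 (SE 0.25, DESeq2 adjusted p = 0.0401). That change was 1.12 within replicates 1 and 2 (DESeq2 adjusted p = 0.000836) and 0.34 within replicates 3 and 4 (DESeq2 adjusted p = 0.203). Pcx, pyruvate carboxylase, was higher in aged than in young livers by 0.27 (SE 0.08, DESeq2 adjusted p = 0.0305), with 4220 to 4784 against 3500 to 3893. The citrate carrier Slc25a1, which exports the substrate of Acly, averaged 3144 ± 99.8, 3204 ± 209 and 2876 ± 294 at the successive ages (SD, n = 4) and passed in no comparison. The acetyl-CoA synthetase Acss2 passed in none either, with means between 4593 and 5813.

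Among 4 genes of carboxylase control, Mid1ip1 was higher in middle-aged than in young livers by 0.66 (SE 0.21, DESeq2 adjusted p = 0.0363). It was at 346 to 439 in young and 481 to 744 in middle-aged livers, without overlap, whereas its partner Thrsp did not pass. The Mid1ip1 change was 0.92 within replicates 1 and 2 (DESeq2 adjusted p = 0.00198) and 0.35 within replicates 3 and 4 (DESeq2 adjusted p = 0.502). Of 10 other elongases, desaturases and their partners, Elovl3, an elongase of very long saturated chains, was the only one called. Its means, 3793 ± 989 for young, 1507 ± 403 for middle-aged and 2077 ± 552 for aged livers (SD, n = 4), gave changes of -1.33 and -0.87 against young (SE 0.23 in each, DESeq2 adjusted p = 2.53e-06 and 0.00879), opposite in sign to those of Elovl6. Scd2, the second stearoyl-CoA desaturase, averaged 50.5 to 73.6 and passed in none.

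Of 8 esterification genes, the phosphatidate phosphatases Lpin1 and Lpin2 were lower in aged than in young livers. Lpin1 was at 1739, 2852, 837 and 1138 normalised counts in young, 847, 948, 569 and 892 in middle-aged and 441, 517, 297 and 440 in the aged livers. All aged livers were below all others, and the aged against young change was -1.95 (SE 0.36, DESeq2 adjusted p = 3.36e-05). The Lpin1 change against middle-aged livers, -0.94 (SE 0.36, DESeq2 adjusted p = 0.249), did not pass. Lpin2 changed by -0.63 against young and by -0.71 against middle-aged livers (SE 0.19 in each, DESeq2 adjusted p = 0.0285 and 0.0216). Gpam, which starts glycerolipid synthesis, averaged 1265, 2243 and 1314 and did not pass (0.83 for middle-aged against young, DESeq2 adjusted p = 0.121), nor did Dgat2, with means of 4182 to 4603. The interaction of the aged against middle-aged change with spike-in set was called for 6 of the 48 genes (Acss2, Mid1ip1, Pklr, Dgat2, Elovl5 and Pnpla3), each with the higher change in replicates 3 and 4, where 0.996% of tested genes were called. With edgeR's quasi-likelihood test, which called 0.405% of tested genes, Elovl5 alone passed (adjusted p = 0.0119). The edgeR adjusted p of Acss2, Mid1ip1, Pklr and Dgat2 lay between 0.072 and 0.19, and Pnpla3 was too low to be tested.

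**Figure D5:**
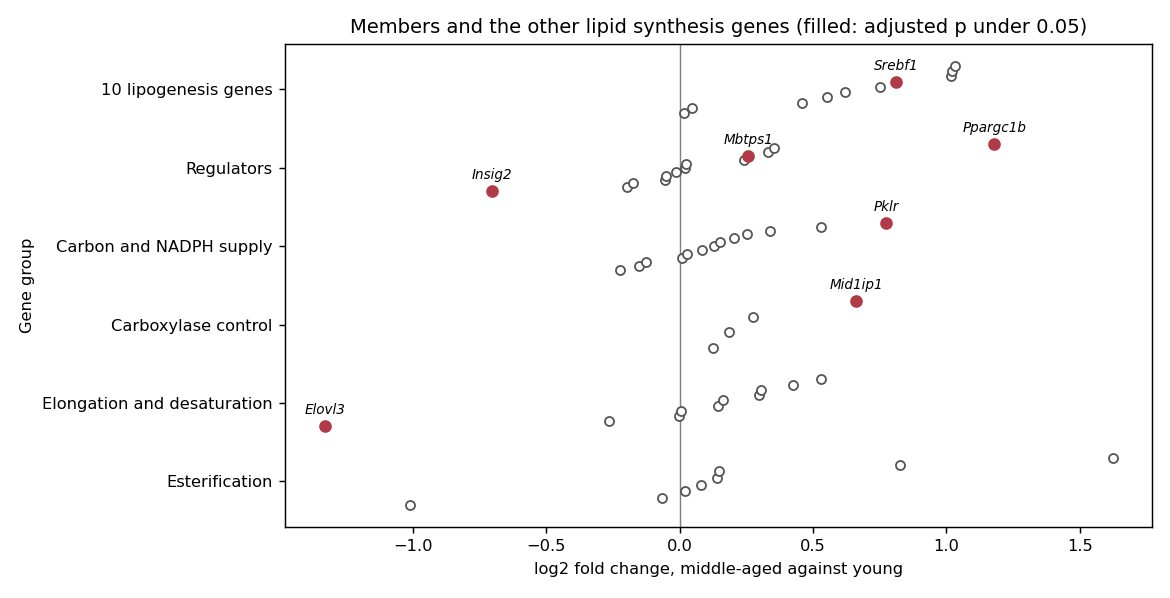
Log2 fold change of middle-aged against young livers (horizontal axis) for the 10 members and for 48 other genes grouped by role, 1 point per gene; vertical position within a group only spreads the points, and Mogat1 and Pnpla3 were too low to be tested. Filled and named points passed an adjusted p of 0.05: Srebf1 of the members, and 6 of the others, of which Insig2 and Elovl3 lay below 0.

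The genes most like the members were sought over the 12 livers as a description. Each member was standardised and averaged, and 8878 other genes whose normalised counts averaged 50 or more were ranked by Pearson's r with that profile. The closest were Utp14b (r = 0.931, Spearman's rho 0.909), Pklr (0.918, rho 0.874), Pls3 (0.911, rho 0.867), Hcn3 (0.906, rho 0.874) and Ttl (0.900, rho 0.853). All points share their libraries and size factors with the members. Pklr is the one gene of the pathway list among these. Hcn3 and Pklr overlap on opposite strands of chromosome 3, and Utp14b lies on the same strand as the overlapping acyl-CoA synthetase gene Acsl3, so their counts may share reads.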

How the data were processed

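Liver RNA-seq of 12 C57BL/6N mice, 4 at each of 3 ages, was read from the deposited table of raw counts per gene (53465 genes and 92 spike-ins). Per the labels, the submitters' processing notes name STAR 2.5.2b, SAMtools 1.9, featureCounts, R 3.6.3, edgeR 3.28.1 and DESeq2 1.26.0, and the builds mm10 and GRCm38; the strand setting of counting is not given in the sources used here. Gene names, positions and exonic lengths came from the GRCm38 annotation and promoters from RefSeq. Spike-ins were left out of library sizes and tests. Counts of the 28449 genes with at least 1 count were divided by size factors and tested with DESeq2 1.42.0 under R 4.3.3 (Wald test for pairs of ages, likelihood ratio test for all ages, Benjamini-Hochberg adjustment over all genes, threshold 0.05, all 12 livers in one fit). The interaction of age with spike-in set was tested in the same way. Each liver is labelled as 1 animal, so p-values refer to the spread between animals. Ratios of counts were compared by exact permutation in Python 3.11.15 with scipy 1.17.1.

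Alternatives were edgeR 4.0.16 (quasi-likelihood), limma 3.58.1 (voom), other scalings and filters, only the 2 ages compared, spike-in set or replicate number as a term, fits within a set, and each liver left out. The named genes were all 10 members, every pathway gene called between any pair of ages, 12 pathway genes chosen whatever their values (1 is not reported here), and the 5 genes most alike. The members and gene lists were chosen with earlier results of these data known. The fits were tested on simulated data. No file was left out.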

Additional observations from a re-analysis of the deposited data

Results flagged for a closer look

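Of the lipogenesis genes, 7 had a change from middle-aged to aged livers that differed between the spike-in sets by the test of the interaction in DESeq2. The change in replicates 3 and 4 minus that in replicates 1 and 2 was 2.83 on the log2 scale for Me1, 2.50 for Elovl6, 2.46 for Thrsp, 2.12 for Fasn, 1.66 for Acacb, 1.46 for Scd1 and 1.21 for Srebf1. The change from young to aged livers differed in the same direction for Me1, by 1.46, and for Srebf1, by 0.96. With edgeR's quasi-likelihood test, Me1, Elovl6 and Srebf1 remained past the threshold between middle-aged and aged livers and neither gene did between young and aged livers. Of all tested genes, DESeq2 called 0.996% and 0.732% in these 2 interactions and edgeR 0.405% and 0.19%. Dixon's criterion was applied only to the levels of the 10 members and their 2 ratios at each age, not to marker or mitochondrial shares, and in none of these 36 groups of 4 did a liver stand apart, where chance alone gives about 1.8.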

How the results depend on the processing

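Of 690 fold changes of single members under alternatives, 601 kept their direction and their side of the threshold, 36 moved past it, 1 moved short of it (Srebf1 between middle-aged and young livers under edgeR) and 52 changed sign, 31 of these outside the fits within a spike-in set. The cause of these changes was not tested, nor was the part of depth or of the number of livers.

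Members called between middle-aged and young livers numbered 0 with edgeR, 2 with limma voom, TMM factors or spike-in set as a covariate, 3 with total-count factors and 5 with only these ages fitted, against 1 in the report. The share of all tested genes called, 6.41% in the report, was 2.31% with edgeR, 5.8% with limma voom, 6.23% with TMM factors, 6.18% with the covariate, 8.42% with total-count factors and 11.2% with only these ages. Total-count factors moved the median of all genes to 0.12 on the log2 scale and gave 841 genes called higher and 159 lower, against 398 and 329. Over the ages together edgeR called 0 members and 1.93% of tested genes. Within replicates 1 and 2 the calls were 1, 5, 6 and 7 (young to aged, young to middle-aged, middle-aged to aged, all ages). Of all tested genes 1.24%, 2.18%, 0.307% and 2.01% were called there. Within replicates 3 and 4 the calls were 6, 3, 2 and 6, beside 4.22%, 3.64%, 2.47% and 5.13% of tested genes. Of the other pathway genes, in the same order of pairs, edgeR called 1, 2 and 0, against 4, 6 and 4. The share of all tested genes called by edgeR was 1.42%, 2.31% and 0.107%. No independent filtering gave 2, 3 and 1 (1.13%, 1.56% and 0.218% of tested genes). Aged against young gave 2 with only these ages fitted (2.05%), 1 within replicates 1 and 2 (1.24%) and 8 within replicates 3 and 4 (4.22%). Middle-aged against young gave 14 with total-count factors (8.42%), 11 with only these ages fitted (11.2%) and 3 within replicates 3 and 4 (3.64%). Aged against middle-aged gave 2 with total-count factors (0.697%). The interaction with set was called by edgeR for 0 members from young to aged and 3 from middle-aged to aged livers (0.19% and 0.405% of tested genes). With at least 10 counts in 4 samples DESeq2 called it for 1 member, Me1, between middle-aged and young livers (0.567% of tested genes).

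With each liver left out in turn, members called ranged from 0 to 2, 1 to 3 and 0 to 0 for the pairs of ages in that order and from 0 to 3 over all ages, and pathway genes from 2 to 11, 2 to 10 and 0 to 5. The 11 and the 10 came without aged replicate 1, beside 10.5% and 9.72% of tested genes called. The lowest of 2 came without young replicate 2 or aged replicate 3 and without middle-aged replicate 2. The 0 came without middle-aged replicate 2, middle-aged replicate 4 or aged replicate 4 (0.856%, 0.322% and 0.446% of tested genes called).

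Signs changed within replicates 1 and 2 between aged and young livers for Acly (-0.77), Acaca (-0.0047), Acacb (-0.34), Fasn (-0.13), Elovl6 (-0.10), Me1 (-0.37), Srebf1 (-0.10) and Mlxipl (-0.32), and for Mlxipl also against middle-aged livers (-0.23) and between middle-aged and young livers (-0.083). Within replicates 3 and 4 they changed between middle-aged and young livers for Acacb (-0.055) and Thrsp (-0.72), and between aged and middle-aged livers for Acly (0.22), Acaca (0.27), Acacb (0.43), Fasn (0.53), Elovl6 (0.85), Scd1 (0.31), Me1 (1.06), Srebf1 (0.19) and Thrsp (0.049). Under limma voom Thrsp changed sign between middle-aged and young livers (-0.12) and Me1 between aged and middle-aged livers (0.028). The log2 Acacb to Acaca ratio changed sign within replicates 1 and 2 from young to middle-aged (0.29) and within replicates 3 and 4 for aged against middle-aged (0.15). The log2 Scd1 to Elovl6 ratio did so within replicates 1 and 2 from young to middle-aged (-0.16) and from middle-aged to aged livers (0.55), and within replicates 3 and 4 for aged against young (-0.28).

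Leaving out single livers moved values across 0 between aged and middle-aged livers for Acaca (-0.33 to 0.0063), Elovl6 (-0.54 to 0.035), Me1 (-0.45 to 0.22) and Mlxipl (-0.079 to 0.15), between aged and young livers for Acacb (-0.086 to 0.26), Acly (-0.094 to 0.42) and Mlxipl (-0.065 to 0.16), and between middle-aged and young livers for Thrsp (-0.29 to 0.28) and Mlxipl (-0.069 to 0.077). It did so for the Acacb to Acaca ratio between middle-aged and young livers (-0.23 to 0.0041) and for the Scd1 to Elovl6 ratio between aged and young (-0.10 to 0.23), middle-aged and young (-0.10 to 0.36) and aged and middle-aged livers (-0.31 to 0.15).

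Replicate numbers did not pair the samples: deviations of same-numbered livers correlated at -0.30 to 0.16, and a liver correlated best with its own number in 4 of 24 checks. With the replicate block 0, 1 and 0 members were called, beside 2.85%, 3.23% and 1.5% of tested genes. There Srebf1 changed by 0.82 between middle-aged and young livers (DESeq2 adjusted p = 0.00787).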
